A study of Mus musculus with 12 samples.

Results

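Day 5 was compared with day 3 in Esrrb_R mouse embryonic stem cells, at both times without doxycycline (Dox). Esrrb_R is a rescue clone, a single clonal line derived from AINV15 embryonic stem cells that carry the Dox-dependent transactivator rtTA. Its own Esrrb, an orphan nuclear receptor of the pluripotency network, is kept down by a short hairpin, and a second copy that the hairpin cannot target is expressed only in Dox. All cultures carry the hairpin and the inducible copy. Cells at day 0 received 1 µg/ml Dox, and cells at days 1, 3 and 5 had been without it for that number of days. The medium held serum with Lif, and the experiments ran on gelatin without feeder cells. For maintenance the line was kept on irradiated mouse embryonic fibroblasts. The comparison uses 6 of the 12 arrays of the series, the 3 biological replicates of day 3 and the 3 of day 5, and the other 6 arrays, of days 0 and 1, share in the estimate of the spread. Its members are all 19938 genes that probe sets with a single gene symbol measured on the Affymetrix Mouse Gene 1.0 ST array, whose probes lie along the exons. Both groups lack Dox, so they do not differ in treatment, but time in culture and time without Esrrb cannot be told apart.

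Mouse embryonic stem cells held in serum with Lif pass through a naive state, kept by Lif and Stat3 and by factors such as Nanog, Klf4 and Esrrb, and can move on to a primed state that resembles the epiblast after implantation. Cells that leave pluripotency build actin stress fibers, keratins and a matrix of laminin and collagen, and activate genes of the germ layers or of the extraembryonic lineages. Part of this occurs through Srf, a factor whose activity depends on the pool of free actin. Another part occurs through Yap with its DNA-binding partner Tead, which respond to cell shape and tension.

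Among the microRNA precursors on the arrays, 1 genomic group rose as a whole and 2 others fell in large part, so the mature sequences of their leading members are shown first. A mature microRNA recognizes its targets mainly through its seed, bases 2 to 8, which is in capitals. The sequences are from RefSeq (mouse GRCm38.p6), 5′ to 3′. The first 4 belong to the Mir302 and Mir367 group on chromosome 3, which rose. The next 4 belong to the Mir363 and Mir106a group on chromosome X, of which 4 of 5 precursors fell. The last 2 come from Mir380 and Mir329 of the chromosome 12 group, which also fell.
mmu-miR-302b-3p: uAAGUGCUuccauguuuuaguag
mmu-miR-302d-3p: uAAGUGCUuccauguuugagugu
mmu-miR-302c-3p: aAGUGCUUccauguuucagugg
mmu-miR-367-3p: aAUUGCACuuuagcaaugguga
mmu-miR-363-3p: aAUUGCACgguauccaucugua
mmu-miR-92a-3p: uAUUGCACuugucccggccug
mmu-miR-20b-5p: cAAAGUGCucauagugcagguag
mmu-miR-106a-5p: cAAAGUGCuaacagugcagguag
mmu-miR-380-3p: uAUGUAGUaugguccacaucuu
mmu-miR-329-3p: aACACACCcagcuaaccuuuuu
The seed AAGUGCU is held by 5 (0.298%) of the 1679 mature mouse microRNAs in the RefSeq table, AUUGCAC by 6 (0.357%) and AAAGUGC by 7 (0.417%). The seed of miR-367-3p, whose precursor rose, is the same as that of miR-363-3p and miR-92a-3p, whose precursors Mir363 and Mir92-2 fell.

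Esrrb itself was low at both days. Its log2 signal was 8.20, 8.07 and 8.34 on the day 3 arrays and 8.15, 8.28 and 8.13 on the day 5 arrays, against 11.59 ± 0.05 (SD, n = 3) with Dox. The arrays of the 2 days overlapped, and the difference of -0.01 (standard error 0.07) was not called (adjusted p = 0.92, limma). The values are log2 signals from the Robust Multichip Average of the authors, and every difference below is day 5 minus day 3 on that log2 scale, tested with limma in 1 model of the 12 arrays with a mean per day and with p-values adjusted over all genes by Benjamini and Hochberg. A gene was called at an adjusted p under 0.05.

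With Esrrb at a mean of 8.20 at day 3 and 8.19 at day 5, 2601 genes were higher at day 5 (13.0% of 19938) and 2442 were lower (12.2%). Without a correction, 7030 genes had p under 0.05. For 4942 of the 5043 called genes the arrays of the 2 days did not overlap. Over all genes, all day 5 arrays lay above all day 3 arrays for 3676 genes (18.4%) and below them for 4088 (20.5%). Most differences were small, with a median size of 0.12 over all genes, 0.37 among genes called higher and -0.32 among genes called lower, and the median over all genes was -0.02. The large differences leaned upward. More than 2-fold higher were 170 genes (0.853%) and more than 2-fold lower 52 (0.261%), so that 76.6% of the genes past 2-fold were higher while 51.6% of all called genes were. Past 4-fold there were 9 genes higher and 1 lower. The methods' t-test with Benjamini-Hochberg adjustment called fewer genes, 1415 higher and 1239 lower.

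**Figure D1:**
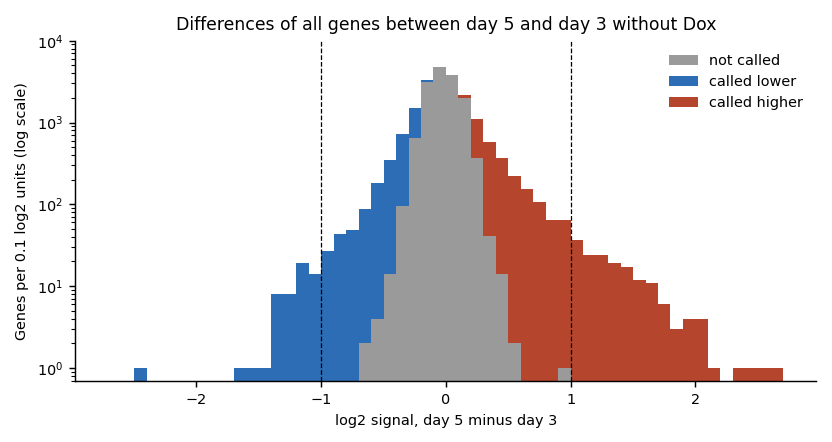
Number of genes (y axis, log scale) by their difference in log2 signal between day 5 and day 3 (x axis), in bins of 0.1. Grey genes were not called, blue were called lower and red called higher, and the dashed lines mark 2-fold, beyond which 170 genes lie on the right and 52 on the left.

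Replicates agreed closely. Pairs of day 3 arrays correlated at 0.9974 to 0.9976 over genes, pairs of day 5 arrays at 0.9962 to 0.9972, and arrays of different days at 0.9883 to 0.9915. In an estimate of array quality the day 5 arrays had weights of 0.576 (replicate 2) to 1.113. Those of the day 3 arrays, 0.892 to 1.371, overlapped them. The spread of genes around their day mean did not overlap, with SDs per array of 0.095 to 0.11 at day 5 and 0.084 to 0.091 at day 3. Day 5 replicate 2 was the lowest of its group for the muscle actins and Tagln below, and without it 2484 genes were called higher and 2384 lower.

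The markers of the labelled cell type were present. The summed linear signal of 10 genes that mark undifferentiated embryonic stem cells (Pou5f1, Sox2, Nanog, Zfp42, Sall4, Lin28a, Utf1, Fgf4, Tdgf1 and Dppa5a) was 37487 to 37879 on the day 3 arrays and 30673 to 32042 on the day 5 arrays, with 1 gene called higher and 6 lower. The summed signal of 10 fibroblast markers was 1675 to 1739 at day 3 and 2168 to 2603 at day 5, where 5 (Col1a1, Col1a2, Col3a1, Dcn and Postn) were higher and Thy1 was lower. Fap and Lum were low at both days, with mean log2 signals of 4.65 and 4.58 at day 3 and 4.59 and 4.63 at day 5. The fibroblast markers at day 0 summed to 2223 to 2579, close to day 5. In these bulk cultures fewer cells of a type and less RNA per cell cannot be told apart.

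The largest rise was that of Thbd, the thrombin receptor thrombomodulin that is abundant in parietal endoderm. It was at 8.09, 7.66 and 7.85 at day 3 and at 10.20, 10.71 and 10.58 at day 5, a 6.19-fold rise (log2 difference 2.63, standard error 0.14, adjusted p = 1.2e-07, limma). Anxa1, a calcium-dependent membrane-binding annexin, was at 9.06, 8.86 and 9.24 and then at 11.71, 11.54 and 11.60, a difference of 2.56 (standard error 0.10, adjusted p = 2.5e-08). Every day 5 array of both genes lay more than 2 log2 units above every day 3 array. The prostaglandin E receptor Ptger3 rose by 2.50 (adjusted p = 1.8e-07, limma), from a mean of 7.78 to 10.29. The aldo-keto reductases Akr1c14 and Akr1c18 rose by 2.36 and 2.10, and the activin antagonist follistatin, Fst, by 2.08. Of the remaining large rises, Capn6 is a calpain without protease activity (2.05), Efemp1 a matrix fibulin (2.04), Igfbp3 a binding protein of insulin-like growth factors (1.94), Frzb a secreted Wnt inhibitor (1.91) and Colec12 a scavenger receptor (1.85). The smooth muscle, cardiac and skeletal muscle actins Acta2 (2.11), Actc1 (1.93) and Acta1 (1.91) and the keratin Krt18 (1.85) complete the 15 largest rises.

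The largest falls were led by Lgals2, a galectin that binds galactosides. Its log2 signal was 8.86, 9.30 and 9.04 at day 3 and 6.54, 6.79 and 6.48 at day 5, so that day 3 was 5.51-fold above day 5 (log2 difference -2.46, standard error 0.11, adjusted p = 6.7e-08, limma). It was the single gene past 4-fold in this direction, and its day 5 mean of 6.60 was also below its day 0 mean of 7.92. Next came the growth factor Fgf15 (-1.62), the transcriptional repressor Bhlhe41 (-1.56) and Ndrg2 (-1.47). Cubn and Amn, which together form the cubilin and amnionless receptor of the visceral endoderm, fell, with differences of -1.39 and -1.32. Lrp2, the endocytic receptor megalin that works beside them, differed by -0.18 (adjusted p = 0.11, limma) and was looked up after these values were seen. The others of the 15 were Map7d3, a microtubule-associated protein (-1.38), the deubiquitinase Usp44 (-1.36), the transcription factor Ebf1 (-1.35), the exchange factor Mcf2 (-1.34), the peroxisomal oxidase Pipox (-1.32), the phospholipase Pla2g1b (-1.28), the piRNA pathway genes Mael (-1.28) and Tdrd12 (-1.26), and Pdzd4 (-1.25).

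**Figure D2:**
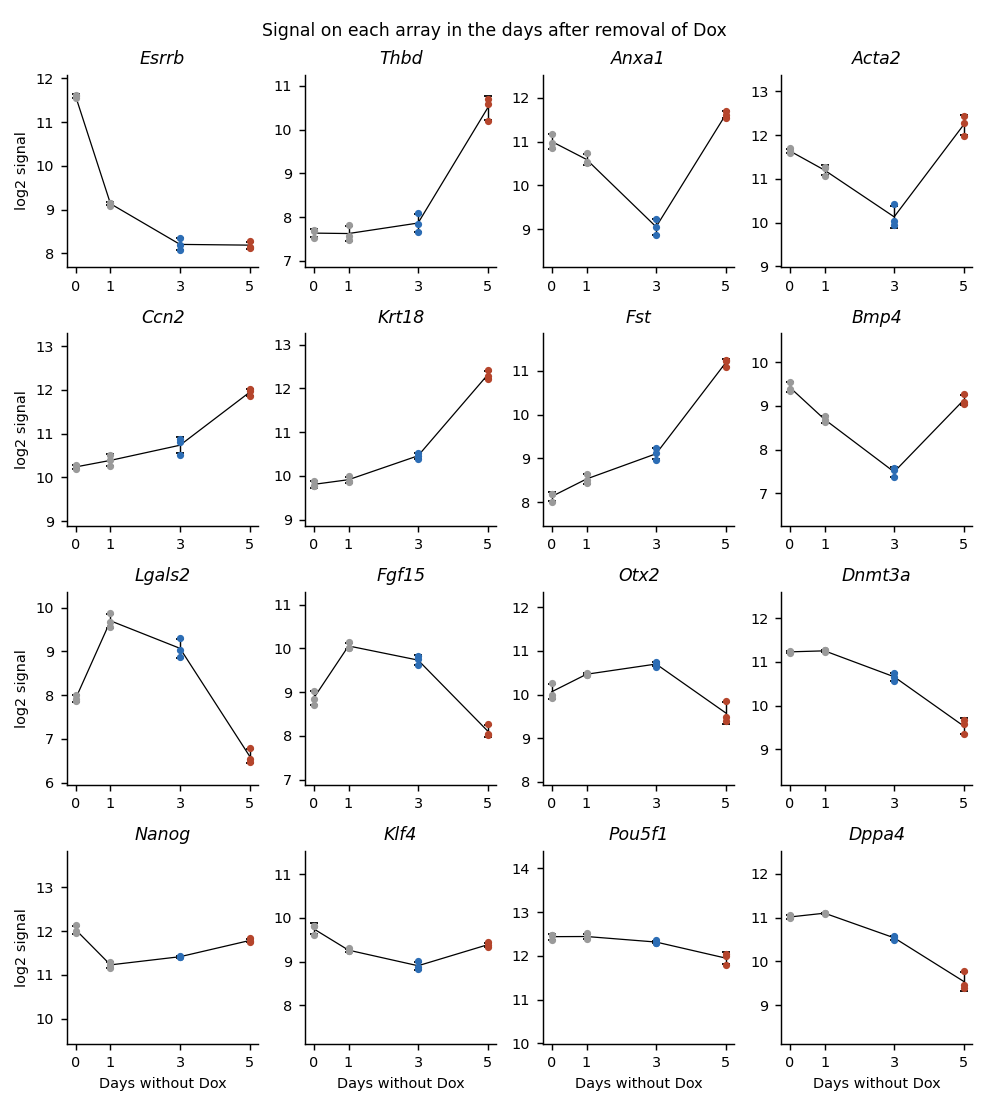
Log2 signal (y axis, each panel spanning the same number of log2 units) of 16 genes on every array against days without Dox (x axis). Points are single arrays, blue for day 3 and red for day 5, the lines join the means of the days, and bars are the SD of 3 arrays. Esrrb is at means of 8.20 and 8.19 at days 3 and 5, while Thbd goes from a mean of 7.87 to 10.50 and Lgals2 from 9.07 to 6.60.

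The pluripotency genes divided by class. Of 23 general pluripotency genes, 18 fell and 0 rose, with a median of -0.37. Dppa4 (-0.99) and Dppa2 (-0.79), chromatin proteins of the early embryo, Dnmt3l (-0.89), the cofactor of the de novo methyltransferases, and Fgf4 (-0.80), the growth factor that signals from the epiblast, fell most among those named. Pou5f1, which encodes Oct4, was at 12.30, 12.35 and 12.29 at day 3 and at 12.05, 11.80 and 11.99 at day 5 (log2 difference -0.37, standard error 0.07, adjusted p = 0.0016, limma). Its 2 groups of arrays did not overlap, but day 3 was only 1.29-fold above day 5. Sox2 fell by 0.26 (adjusted p = 0.0057). The share of general pluripotency genes that fell was 78.3%, beside 12.2% of all genes.

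Of 17 naive pluripotency genes, which include Esrrb, 5 rose (29.4%) and 2 fell (11.8%), and the median was -0.01. Over all genes the shares were 13.0% and 12.2%, so the share that fell was near that of all genes. Nanog, the homeobox factor of the naive network, was at 11.44, 11.40 and 11.40 at day 3 and at 11.83, 11.77 and 11.75 at day 5, a rise of 0.37 (standard error 0.06, adjusted p = 5.6e-04, limma). Klf4, a Krüppel-like factor downstream of Stat3, was at 9.01, 8.83 and 8.87 and then at 9.34, 9.44 and 9.37, a rise of 0.48 (adjusted p = 3.0e-04). For both genes each day 5 array lay above each day 3 array, and both day 5 means remained below those of day 0, 12.03 for Nanog and 9.75 for Klf4. Tfcp2l1, another target of Stat3, rose by 0.56, Klf5 by 0.28 and Stat3 itself by 0.26, whereas Tcl1 (-0.44) and Gbx2 (-0.34) fell. Without day 5 replicate 2, 4 naive genes rather than 2 were called lower. Zfp42 (-0.17), Nr0b1 (-0.21), Tbx3 (-0.04), Klf2 (-0.07), Prdm14 (0.23) and Dppa3 (0.26) did not pass the test.

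The primed epiblast genes mostly went down. Of 18, 10 fell and 2 rose, with a median of -0.37. Otx2, a homeobox factor of the primed state, was at 10.64, 10.75 and 10.70 at day 3 and at 9.40, 9.86 and 9.48 at day 5 (-1.12, standard error 0.11, adjusted p = 9.9e-06, limma). Dnmt3a, a de novo DNA methyltransferase, went from 10.65, 10.75 and 10.57 to 9.34, 9.68 and 9.57 (-1.13, standard error 0.08, adjusted p = 7.0e-07). No array of one day reached the other in either gene, and both day 5 means, 9.58 and 9.53, were below those of day 0, 10.07 and 11.23. Dnmt3b, the other de novo methyltransferase, fell by 0.80 from 11.96. Fgf5, the classical marker of the primed epiblast, differed by 0.16 (adjusted p = 0.49, limma). Its day 5 arrays, at 9.97, 9.29 and 9.58, overlapped those of day 3. The primed epiblast markers Pou3f1 (-0.14), Zic2 (-0.26) and Sox3 (-0.18) were not called either. Fgf5, Zic2 and Pou3f1 had day 5 means of 9.61, 9.67 and 8.75, above their day 0 means of 7.74, 8.16 and 8.31. Sox3 was at 7.98 at day 5 and 7.97 at day 0. The 2 that rose were the Wnt ligand Wnt8a (1.12) and N-cadherin, Cdh2 (0.31), whose call was lost in 7 of 20 alternative settings, including without day 3 replicate 1 (adjusted p = 0.12, limma).

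Of 24 germline and meiosis genes 13 fell and 2 rose, with a median of -0.30. The genes that fell included Mael and Tdrd12, given above, Ddx4, the RNA helicase of germ cells (-0.93), and Sycp3, a protein of the synaptonemal complex (-1.17). Kit, the stem cell factor receptor, rose by 1.27 and Tfap2c, a factor of germ cells and trophectoderm, by 0.77. Of 6 genes of the 2-cell-like state, 1 fell (Tmem92, -0.46), or 3 without day 5 replicate 2 and 2 without day 5 replicate 1. Of 13 oocyte genes also 1 fell (Ooep, -0.47). These shares were 16.7% and 7.69%, beside 12.2% of all genes.

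**Figure D3:**
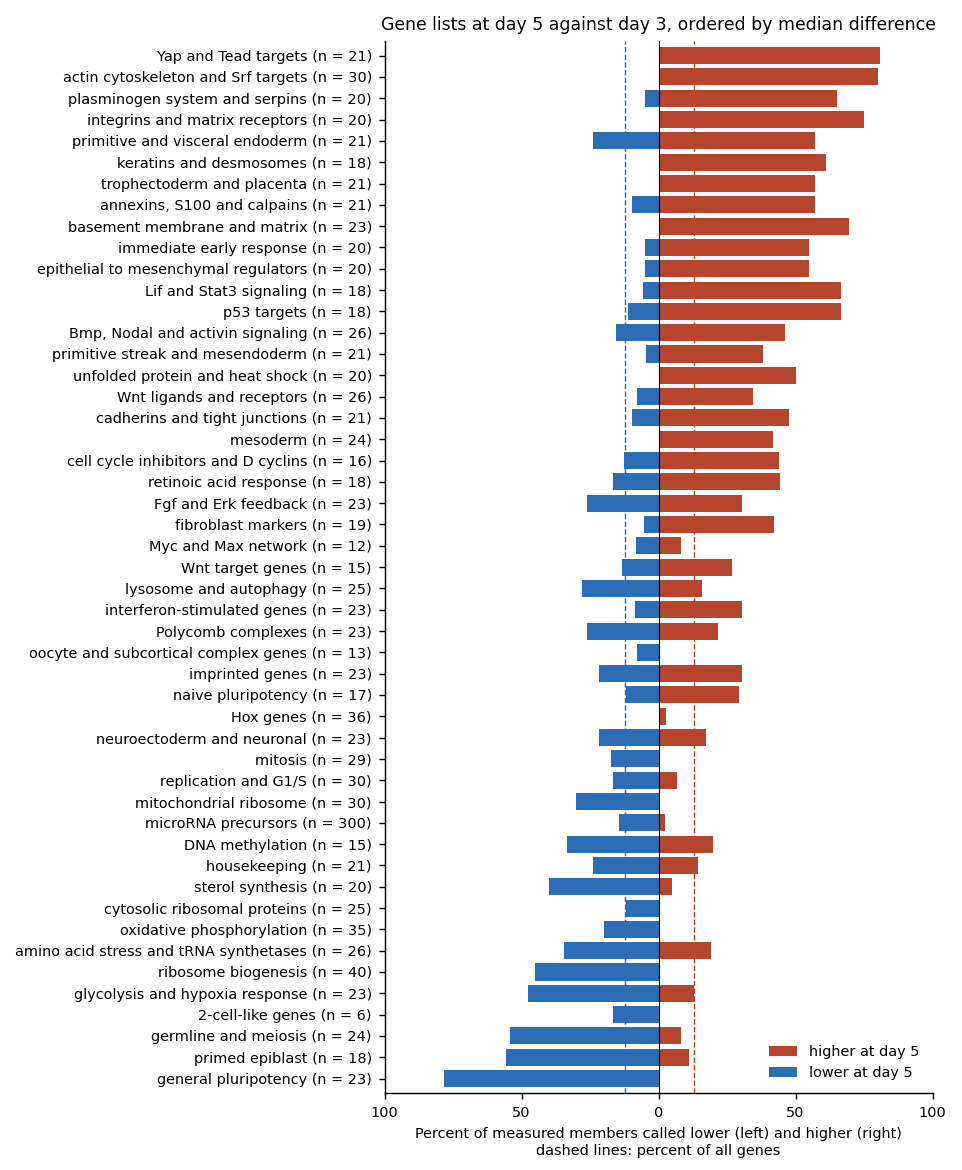
Percent of the measured members of each gene list called lower (blue, to the left) and higher (red, to the right) at day 5 against day 3, ordered by the median difference of the list. Dashed lines mark the shares of all genes, 12.2% lower and 13.0% higher. The lists of Yap and Tead targets and of the actin cytoskeleton stand at the top, with 81.0% and 80.0% higher, and general pluripotency at the bottom, with 78.3% lower.

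The lists with the highest shares of rising genes were those of the actin cytoskeleton and of Yap and Tead. Of 30 actin cytoskeleton and Srf target genes, 24 rose and 0 fell, with a median of 0.56. Acta2, smooth muscle actin, was at 10.04, 9.94 and 10.42 at day 3 and at 12.44, 11.99 and 12.29 at day 5, a 4.31-fold rise (2.11, standard error 0.13, adjusted p = 2.9e-07, limma). Its mean was 11.64 at day 0 and 12.24 at day 5. The muscle proteins Tagln (1.43) and Cald1 (1.58), the LIM protein Fhl2 (1.16) and tropomyosin Tpm1 (1.04) rose with Acta2. Actb, the cytoplasmic actin, differed by 0.08 (adjusted p = 0.27), and Srf itself by 0.23 (adjusted p = 0.033). Cnn1, a calponin of smooth muscle, was at 9.51, 8.79 and 9.33 at day 5, overlapping day 3, and did not pass the test.

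Of 21 Yap and Tead target genes, 17 rose and 0 fell, with a median of 0.77. Ccn2, a matricellular protein and classical Yap target, was at 10.81, 10.52 and 10.87 at day 3 and at 11.85, 12.01 and 11.97 at day 5 (1.21, standard error 0.09, adjusted p = 1.6e-06, limma). Tgfb2, a growth factor, went from 6.46, 6.57 and 6.64 to 8.09, 7.95 and 8.18 (1.52, standard error 0.09, adjusted p = 3.0e-07). Both had all day 5 arrays about 1 or more log2 units above all day 3 arrays. Tissue factor F3 (1.22), the ectonucleotidase Nt5e (1.12), Crim1 (1.09) and Ccn1 (1.02) also rose past 2-fold. The inhibitors of Yap that are themselves its targets rose as well, the kinase Lats2 by 0.92, Amotl2 by 0.77 and Amotl1 by 0.79. Ajuba (0.11), Dlc1 (0.01), Wwc1 (-0.03) and Fstl1 (0.19) were not called. The fibroblast markers, given above, moved upward with both lists and with the matrix genes below, and their part in these results was not tested.

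The starts of these genes were searched in RefSeq (GRCm38.p6), from 250 bases before to 50 bases after each start, on both strands, for the CArG box bound by Srf and for GGAATG, the core bound by Tead. On the opposite strand the latter reads CATTCC. Neither motif can lie inside the other. A CArG box was found for 254 of 15614 genes on the arrays with such a sequence (1.63%), for 8 of 27 genes of the actin list (29.6%) and for 0 of 15 Yap and Tead targets. GGAATG was found for 2363 of all (15.1%), for 9 of 27 actin genes (33.3%) and for 8 of 15 Yap and Tead targets (53.3%). The lists were written by hand as targets of these factors, so their shares follow in part from that choice. They say nothing about the changes between the days. Members that rose were not compared with members that did not. Matches of 4 actin genes and 3 Yap and Tead targets that rose are shown with the motif in capitals, to let the sites be seen beside the changes. The last CArG box shown is of villin, Vil1, an epithelial actin bundler that did not pass the test (-0.03).
Acta1 (1.91), chr8:123894809-123894878, minus strand: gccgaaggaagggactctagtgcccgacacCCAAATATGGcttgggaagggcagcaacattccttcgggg
Fhl2 (1.16), chr1:43196818-43196887, minus strand: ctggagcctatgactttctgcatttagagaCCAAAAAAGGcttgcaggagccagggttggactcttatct
Cnn2 (0.94), chr10:79988514-79988583, plus strand: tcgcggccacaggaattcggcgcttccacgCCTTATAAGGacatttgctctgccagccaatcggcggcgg
Vcl (0.75), chr14:20929148-20929210, plus strand: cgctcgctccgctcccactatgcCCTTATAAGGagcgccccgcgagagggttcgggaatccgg
Vil1 (-0.03), chr1:74409281-74409350, plus strand: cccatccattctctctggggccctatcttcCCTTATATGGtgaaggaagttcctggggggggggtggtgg
Ccn1 (1.02), chr3:145650053-145650118, minus strand: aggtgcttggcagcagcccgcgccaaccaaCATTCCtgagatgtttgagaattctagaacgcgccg
Ankrd1 (0.86), chr19:36120019-36120084, minus strand: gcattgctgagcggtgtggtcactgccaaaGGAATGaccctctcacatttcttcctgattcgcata
Amotl2 (0.77), chr9:102717709-102717774, plus strand: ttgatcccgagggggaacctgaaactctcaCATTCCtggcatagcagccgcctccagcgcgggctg
A match of letters is not a bound site. The values in parentheses are the log2 differences between day 5 and day 3.

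Genes of adhesion and matrix rose alongside. Of 20 integrins and matrix receptors, 15 rose and 0 fell (median 0.47), among them Itga3 (1.34), Itga8 (1.21), Itgav (0.95) and Itgb5 (0.64). Of 23 basement membrane and matrix genes, 16 rose and 0 fell (median 0.39), with nidogen Nid1 at 1.47, the collagen IV chains Col4a1 and Col4a2 at 0.92 and 0.86 and the laminin chain Lamc1 at 0.64. Of 20 genes of the plasminogen system, serpins and matrix proteases, 13 rose and 1 fell (median 0.49). Plat, the tissue plasminogen activator, rose by 1.70, the granzyme inhibitor Serpinb9 by 1.69, the metalloprotease inhibitor Timp2 by 1.23 and the urokinase receptor Plaur by 0.90, whereas the meprin subunit Mep1b fell by 1.02. Of 21 annexins, S100 proteins and calpains, 12 rose and 2 fell, with Anxa3 (1.69), Anxa5 (1.16), Capn2 (0.91) and Anxa2 (0.84) beside Anxa1. The 2 lower became 1 without day 3 replicate 2 or 3 or day 5 replicate 3.

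Keratins and desmosomal genes rose in the same interval. Of 18 members, 11 rose and 0 fell (median 0.42), and 7 rose past 2-fold. Krt18, a keratin of simple epithelia, was at 10.46, 10.39 and 10.52 at day 3 and at 12.41, 12.22 and 12.29 at day 5 (1.85, standard error 0.07, adjusted p = 1.7e-08, limma). Its partner Krt8 rose by 1.49, and Krt19, Krt7, desmoplakin Dsp and desmocollin Dsc2 rose by 1.66, 1.60, 1.66 and 1.42. The adherens and tight junction genes were less uniform. Of 21, 10 rose and 2 fell, Cldn4 (0.74) and Tjp1 (0.40) among the former and Cdh3 (-0.26) among the latter, while E-cadherin, Cdh1, was at a mean of 11.52 at both days. Without day 3 replicate 2 or 3, 1 junction gene was called lower. Of 20 regulators of the transition from epithelium to mesenchyme, 11 rose and 1 fell, with Zeb2 at 1.11 and Snai1 at 1.09. Vim, the mesenchymal filament protein vimentin, rose by 1.03 from 11.48 to 12.52, which is close to its day 0 mean of 12.47.

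Lineage markers rose selectively. Of 21 trophectoderm and placenta genes, 12 rose and 0 fell (median 0.41), but 4 of the 12 are keratins. Of the factors that define the lineage, Gata3 rose by 0.81, Tfap2c by 0.77 and Eomes by 1.10, while Cdx2 was at 6.91, 7.10 and 6.89 at day 3 and at 6.96, 7.04 and 6.89 at day 5, and Elf5 differed by -0.02. Cdx2 did not differ between the days beyond its spread (adjusted p = 0.97, limma). Of 21 genes of the primitive and visceral endoderm, 12 rose and 5 fell, with members in both directions. Thbd, the collagen IV and laminin chains and the factors Sox17 (0.76), Gata4 (0.68), Sox7 (0.63) and Gata6 (0.61) rose. Cubn, Amn, the apolipoprotein Apoe (-0.82), the thyroid hormone carrier Ttr (-0.51) and the endocytic adaptor Dab2 (-0.29) fell. The summed signal of 5 primitive endoderm markers was already 4557 to 4778 at day 0, with Dox. It was 4159 to 4676 at day 3 and 5684 to 7170 at day 5. The summed signal of 5 trophectoderm markers was 533 to 579 at day 0, 554 to 588 at day 3 and 1077 to 1132 at day 5. Only 2 of the 5 were called higher, Krt7 (1.60) and Gata3. The sum leaned on the keratin Krt7, which rose most and was the brightest of the 5 at day 5, with a mean of 9.36. Cdx2, Elf5 and Tfap2a (0.22, adjusted p = 0.09, limma) were not called.

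Of 21 primitive streak and mesendoderm genes 8 rose and 1 fell, and of 24 mesoderm genes 10 rose and 0 fell. Eomes, a T-box factor of the streak and trophoblast, was at 7.36, 7.18 and 7.24 at day 3 and at 8.84, 7.75 and 8.48 at day 5 (1.10, standard error 0.19, adjusted p = 0.0010, limma). The day 5 arrays were all higher, but replicate 2 exceeded the highest day 3 array by much less than the other 2. The Wnt target Sp5 rose by 0.82 and Foxa2, a factor of definitive endoderm, by 0.58, whereas the Nodal antagonist Lefty1 fell by 0.62. The fibroblast markers, given above, rose in the same interval, and their part in the mesoderm counts was not tested. The summed signal of the mesoderm markers Mixl1, Mesp1, Hand1 and Kdr was 455 to 490 at day 3 and 484 to 552 at day 5, with 0 of 4 called. Of 23 neuroectoderm and neuronal genes, 4 rose (17.4%) and 5 fell (21.7%), beside 13.0% and 12.2% of all genes. Of 36 Hox genes, 1 rose (Hoxb4, 0.37) and 0 fell, so that the share that rose was 2.78%.

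Signaling genes changed at several levels of the Bmp pathway. Bmp4, a ligand that signals through Smad1 and Smad5, was at 7.57, 7.37 and 7.53 at day 3 and at 9.27, 9.04 and 9.09 at day 5, a 3.12-fold rise (1.64, standard error 0.08, adjusted p = 9.1e-08, limma). The day 5 mean of Bmp4, 9.13, was below its day 0 mean of 9.42. Bmp2, another ligand, rose by 1.46. Their antagonist Noggin, Nog, rose by 1.55 and the activin antagonist Fst by 2.08, so that ligands and inhibitors both rose. Of the target genes, Id4 rose by 1.11 and Id3 by 0.71, while Id1 (-0.04) and Id2 (0.20) did not pass the test. In all, 12 of 26 genes of Bmp, Nodal and activin signaling rose and 4 fell, the last including Skil (-0.66), Lefty1 and the Nodal coreceptor Tdgf1 (-0.34).

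Of 18 genes of Lif and Stat3 signaling, 12 rose and 1 fell (median 0.32). The kinase Jak2 was at 8.81, 8.47 and 8.65 at day 3 and at 9.69, 9.67 and 9.78 at day 5 (1.07, standard error 0.08, adjusted p = 1.7e-06, limma). Jak1 rose by 0.50, the receptor chains Il6st and Lifr by 0.36 and 0.33, the ligand Lif by 0.69 and the feedback inhibitor Socs3 by 0.21. The kinase Pim2 fell by 0.55. Retinoic acid genes moved in both directions. The degrading enzyme Cyp26a1 (1.26), the synthesizing enzyme Aldh1a2 (0.99) and the homeobox factors Meis2 (0.95) and Meis1 (0.92) were among the 8 of 18 that rose, and the binding proteins Crabp2 (-0.67) and Crabp1 (-0.42) and the receptor Rarg (-0.34) were the 3 that fell. Of 23 genes of Fgf and Erk feedback 7 rose (30.4%) and 6 fell (26.1%), including Dusp5 (0.70) and Spry4 (-0.55). Of 26 Wnt ligands and receptors 9 rose (34.6%) and 2 fell (7.69%), and of 15 Wnt targets 4 (26.7%) and 2 (13.3%). Over all genes 13.0% rose and 12.2% fell.

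Several metabolic and growth lists held more genes that fell than rose, beside 12.2% lower over all genes. Of 23 genes of glycolysis and the hypoxia response, 11 fell and 3 rose. Aldoc, an aldolase, was at 10.62, 10.52 and 10.43 at day 3 and at 9.22, 9.76 and 9.38 at day 5 (-1.07, standard error 0.13, adjusted p = 7.1e-05, limma), and Pfkp (-0.82), Pdk1 (-0.70), Pfkl (-0.44), Pgam1 (-0.38) and Ldha (-0.28) fell with it. Of 40 ribosome biogenesis genes, 18 fell and 0 rose (median -0.15), with Utp14a (-0.51) and Nop10 (-0.49) first. That count was 9 without day 3 replicate 2 and 10 without day 3 replicate 1 or day 5 replicate 3. Of 20 sterol synthesis genes 8 fell, led by Tm7sf2 (-0.62), and 1 rose (0 without day 3 replicate 2), and the amino acid transporter Slc7a3 fell by 0.87. Of 30 replication genes 5 fell (16.7%) and 2 rose, and of 29 mitosis genes 5 fell (17.2%) and 0 rose, shares near that of all genes. Without day 3 replicate 1, 2 replication genes were called lower, and 3 without day 5 replicate 2. Without day 5 replicate 3, 3 mitosis genes were. Ccnd2, a D cyclin, rose by 0.96 and the inhibitor Cdkn2b by 0.72.

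Stress-related lists rose in part. Of 18 p53 target genes 12 rose and 2 fell, although without day 3 replicate 2 only 7 were called higher, and without day 5 replicate 1 or 2 none was called lower. Perp, a p53 target that is also part of desmosomes, rose by 1.24 and the kinase Plk2 by 1.02. Of 20 genes of the unfolded protein and heat shock responses 10 rose and 0 fell, at most by 0.66 (Sel1l). Of 20 immediate early genes 11 rose and 1 fell (0 without day 3 replicate 1 or 3 or any day 5 array), with Atf3 at 0.83, Jun at 0.63 and Fos at 0.53, while Egr1 differed by -0.27 (adjusted p = 0.076, limma). Of 23 interferon-stimulated genes 7 rose (30.4%) and 2 fell (8.7%), beside 13.0% and 12.2% of all genes. Without day 3 replicate 2 or 3, only 4 were called higher. The guanylate-binding proteins Gbp2b (1.74) and Gbp3 (1.45) led those that rose.

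The 300 microRNA symbols on the arrays, 4 of them host genes, measure precursors and their primary transcripts and not the mature microRNA. Of these, 7 rose (2.33%) and 43 fell (14.3%), beside 13.0% and 12.2% of all genes. The median was -0.08, and 27 were called lower without day 5 replicate 3. RefSeq placed 259 precursors measured on the arrays on GRCm38.p6, among them Gm24148, whose symbol is not one of the 300. Of those placed, 72 lay in 11 groups of at least 3 with neighbors within 10 kb. The remaining 228 of the 300 symbols include those that were not placed. Of these 228, 2 rose and 18 fell, with a median of -0.06.

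The Mir302b, Mir302c, Mir302a, Mir302d and Mir367 precursors lie within 0.6 kb on chromosome 3 (chr3:127545228-127545807, plus strand), and their microRNAs are known for their abundance in pluripotent cells of the primed epiblast. All 5 rose, by 1.30 to 1.43. Mir302d was at 7.73, 7.25 and 7.56 at day 3 and at 8.95, 8.61 and 9.01 at day 5 (1.34, standard error 0.17, adjusted p = 6.5e-05, limma), and Mir367 went from 5.79, 5.70 and 5.46 to 7.61, 6.46 and 7.17 (1.43, standard error 0.21, adjusted p = 2.6e-04). The 2 days did not overlap in either, and day 5 replicate 2 was the lowest of its group in both. Each was also higher at day 3 than at day 1, by 2.11 for Mir302d and 1.90 for Mir367. The protein-coding gene Larp7, whose span (chr3:127536714-127553349) encloses the group, was at 10.32 at day 3 and 10.38 at day 5 with a difference of 0.06 that was not called (adjusted p = 0.52).

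The largest group, of 29 precursors, spans 34.4 kb on chromosome 12 (chr12:109709060-109743496, plus strand), from Mir379 to Mir369, in the imprinted region between Dlk1 and Dio3 that is expressed from the maternal allele. Here 18 fell and 0 rose, 28 of 29 differences were below 0, and the median was -0.44. Mir380 was at 7.31, 6.94 and 7.52 at day 3 and at 6.18, 6.12 and 6.09 at day 5 (-1.13, standard error 0.13, adjusted p = 3.2e-05, limma), Mir487b fell by 0.85 and Mir134 by 0.21. The day 5 arrays of Mir380 were close together and below all day 3 arrays. Nearer to Meg3, 7 more precursors (chr12:109585789-109595388) had 2 that fell and a median of -0.15. Mir379 (-1.03) lost its call without day 3 replicate 2 or 3 or day 5 replicate 1 or 3, with adjusted p-values of 0.053 to 0.095 (limma). The noncoding RNAs of the same allele fell too. Meg3 went from 10.99, 11.16 and 11.21 to 10.26, 10.32 and 10.10 (-0.89, standard error 0.08, adjusted p = 3.6e-06) and Rian fell by 0.61, while the paternally expressed Dlk1 (-0.11) and Rtl1 (-0.19), and Dio3 (-0.01), did not pass the test. These transcripts lie on 1 strand and may share primary RNA, so they are not independent of one another. Other imprinted genes rose, namely Igf2 (1.37), Peg10 (1.37) and Sgce (1.08), and Mest (-0.70) and Phlda2 (-0.68) fell.

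On chromosome X, 4 of the 5 precursors from Mir363 to Mir106a (chrX:52741693-52742567, minus strand) fell, with Mir363 at 7.68, 7.81 and 7.71 at day 3 and at 6.80, 6.59 and 6.82 at day 5 (adjusted p = 7.8e-06, limma). These arrays did not overlap, and Mir363 had been at 4.84 at day 0. The paralogous group on chromosome 14, Mir17 to Mir19b-1, had 1 of 5 lower. Of the precursors shown above whose microRNAs have the seed AUUGCAC, Mir367 rose while Mir363 and Mir92-2 (-0.30) fell. The other microRNAs with this seed were not looked at here.

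**Figure D4:**
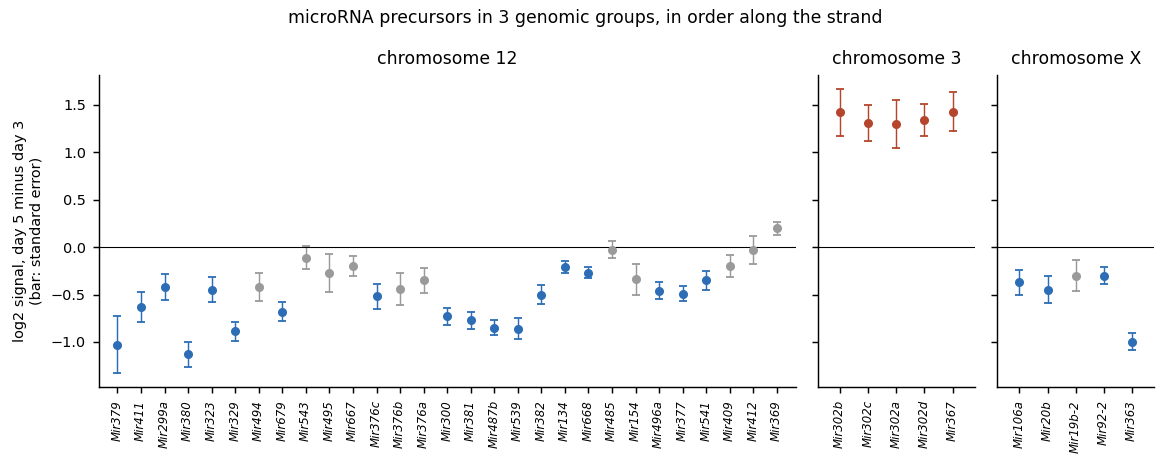
Difference in log2 signal between day 5 and day 3 (y axis) of each microRNA precursor in 3 genomic groups, in order along the strand (x axis). Bars are standard errors from limma and grey points were not called. All 5 precursors on chromosome 3 lie between 1.30 and 1.43, and 28 of 29 on chromosome 12 lie below 0.

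The interval from day 3 to day 5 was then set against the 2 days before it, day 1 to day 3, which also ran without Dox. The test was of the difference between the 2 changes in the same limma model. For 2033 genes (10.2%) the later change was above the earlier one and for 1593 (7.99%) below it. Day 3 arrays enter both changes with opposite sign, so these counts rest on them more than the others do. Without day 3 replicate 2 they were 1276 and 1029, and without day 3 replicate 3 they were 1234 and 1057.

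Among the largest positive differences, genes that had been falling came back. Anxa1 stood at means of 10.59, 9.05 and 11.62 at days 1, 3 and 5, so that a change of -1.54 was followed by one of 2.56 (interval difference 4.10, adjusted p = 2.2e-07, limma). Acta2 (11.20, 10.13 and 12.24) and Bmp4 (8.69, 7.49 and 9.13) had the same course. The macrophage growth factor Csf1, the membrane protein Emp1, Capn6 and thrombospondin Thbs1 also fell before day 3 and rose after it. Ptgs2, the inducible cyclooxygenase, differed in another way. It had fallen by -2.64 from day 1 to day 3, and from day 3 to day 5 it differed by 0.35 (adjusted p = 0.11), with no called change in either direction. In the naive pluripotency list, 13 of 17 genes had a positive interval difference and 0 a negative one. The median change of that list was -0.6 from day 1 to day 3 and -0.01 from day 3 to day 5. Only 5 of the 17 rose after day 3, so a positive difference here was not always a return. Gbx2, with an interval difference of 0.77, still fell after day 3 (-0.34). Esrrb, which had fallen by 0.93 from day 1 to day 3, is 1 of the 13 (0.91). Of 19 genes in the fibroblast list, 10 had a positive interval difference and 2 a negative one. Col1a2 (means of 9.34, 8.10 and 9.34 at days 1, 3 and 5) and Col1a1 (9.24, 8.45 and 9.41) fell and came back. The part of the fibroblast markers in the interval results was not tested.

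Among the largest negative differences, genes that had been rising turned down. Bhlhe41 was at 5.97, 6.51, 7.88 and 6.32, and Ndrg2 at 8.89, 8.63, 9.57 and 8.10, with interval differences of -2.92 and -2.42. The carbonic anhydrase Car14, the membrane protein Mal2, the kinesin Kif1a, Sycp3, the synaptotagmin Syt11 and the noncoding RNA Firre had the same course. Of the glycolysis and hypoxia genes 12 of 23 had a negative interval difference and 0 a positive one, and of the microRNA precursors 39 of 300 and 1. For the 5 precursors of the Mir302 group the interval differences, -0.47 to -0.82, were not called.

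**Figure D5:**
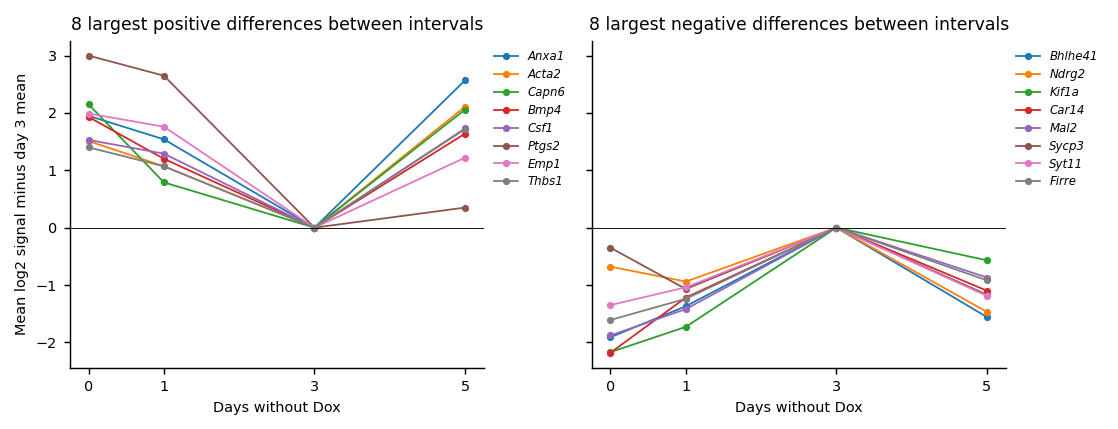
Mean log2 signal relative to day 3 (y axis) against days without Dox (x axis) for the 8 genes with the largest positive and the 8 with the largest negative difference between the 2 intervals. All lines pass through 0 at day 3. The left lines have their lowest point there and the right lines their highest, and Ptgs2 is the single gene whose value at day 5 (0.35 above day 3) was not called.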

How the data were processed

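RNA of Esrrb_R cells was hybridized to 12 Affymetrix Mouse Gene 1.0 ST arrays, 3 per day. The authors deposited log2 values made with the Robust Multichip Average in Affymetrix Expression Console (version not given in the sources used here), which corrects background and normalizes arrays against one another. These log2 values ran from 1.61 to 14.69. Of 35557 probe sets, 21789 named 1 gene, 1621 several and 12147 none, and single-symbol probe sets were averaged into 19938 genes. The number of arrays limits the precision, and signals of different genes are not comparable.

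The model was fitted in limma 3.58.1 under R 4.3.3, with lmFit and eBayes over all 12 arrays and a mean per day (8 residual and 4.63 prior degrees of freedom). Genes were called at a Benjamini-Hochberg adjusted p under 0.05. By permutation of the arrays, a single gene could reach a two-sided p of 0.1 at best. Sequences are RefSeq's, GRCm38.p6. Tables and plots used Python 3.11.15, numpy 2.4.6, pandas 2.3.3 and matplotlib 3.10.9, and the fit was tested on simulated data. The comparison and the 49 gene lists, microRNA precursors included, were chosen with earlier results of these data known. A gene can stand in several lists.

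Named are Esrrb, genes the study names, the 15 largest rises and falls without overlapping arrays, up to 4 members per list by adjusted p with up to 3 called members of the opposite direction, 8 interval differences each way and 5 microRNA precursors each way. Other list members and neighboring genes given with values were chosen after their values were seen. The alternatives were array weights, the brightest probe set, centering, days 3 and 5 alone, a second quantile normalization, the replicate number as a block, a trended robust prior, leaving out dim genes or each array, and the methods' t-test and analysis of variance.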

Additional observations from a re-analysis of the deposited data

Results flagged for a closer look

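Several results stood out because the change from day 3 to day 5 differed from the change from day 1 to day 3 in a test of that difference (limma, adjusted p under 0.05). The later change was above the earlier for 2033 genes and below it for 1593. On the log2 scale the difference between the intervals was 4.10 for Anxa1, 3.18 for Acta2, 3.02 for Csf1, 2.99 for Ptgs2, 2.97 for Emp1, 2.84 for both Capn6 and Bmp4, and 2.77 for Thbs1. It was -2.92 for Bhlhe41, -2.42 for Ndrg2, -2.32 for Car14, -2.30 for Mal2, -2.29 for Kif1a, -2.24 for Sycp3, -2.23 for Syt11 and -2.15 for Firre. Both intervals use the day 3 arrays, and no array controls for time in culture.

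Probe sets that name several genes or none stayed out of the comparisons above. Tested by themselves, 180 of 13768 were higher at day 5 and 372 were lower (limma, adjusted p under 0.05).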

How the results depend on the processing

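The arrays, 3 per day, and the absence of a control for time limit what can be read from these values. In 20 alternative settings of the limma fit, 218 of the 243 named genes that were called kept their call and direction, and 25 lost the call under at least 1 setting, among them Myc, Cdh2, Krr1, Gli2, Ier3, Mir379 and the ribosomal proteins Rpl8, Rpl22 and Rpl30. The count of genes called fell to 1415 higher and 1239 lower with the methods' t-test and Benjamini-Hochberg adjustment. Past 2-fold, the methods' analysis of variance with Bonferroni adjustment left 84 higher and 28 lower. Leaving out 1 array at a time gave 2094 to 2659 genes called higher and 1870 to 2542 lower, 154 to 188 and 48 to 68 past 2-fold, and 1234 to 2083 and 1029 to 1695 with a positive or negative interval difference. In every such fit 1845 genes were called higher and 1509 lower. Same-numbered arrays did not deviate together (correlations of -0.17 to 0.071 over 18 pairs). Arrays of different numbers reached 0.178, for day 0 replicate 2 with day 3 replicate 1. No shared deviation by number was seen, which cannot show whether the arrays were paired in the experiment. With the replicate number as a block, 2445 genes were higher and 2240 lower, 2400 and 2186 of them as without it. Centering on array medians made 58.5% of the calls higher, and a second quantile normalization 47.1%, against 51.6%. Differences that reversed were all near 0 and not called. Esrrb was 0.01 when centered, and -0.08 to 0.05 when 1 array was left out. Fgfr2 was -0.03 after quantile normalization and -0.03 to 0.04 without 1 array. Trim25 was -0.01 after quantile normalization, and Cdx1 was -0.00 to 0.08 without 1 array. Of 1960 list counts, 1837 stayed within 1.5 times the main count.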

Other observations

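Genes of the respiratory chain and the ribosome were not described above, and are set beside 12.2% lower and 13.0% higher over all genes. Of 35 oxidative phosphorylation genes 7 fell (20.0%) and 0 rose (median -0.12), among them Cox7b (-0.33), a subunit of cytochrome c oxidase. That count depended on the setting, from 2 without day 3 replicate 1 or day 5 replicate 3 to 18 with a trended robust variance. Of 30 mitochondrial ribosome genes 9 fell and 0 rose, with Mrps9 at -0.41 and Mrpl15 at -0.38, and of 25 cytosolic ribosomal proteins 3 fell (12.0%) and 0 rose. The mitochondrial count was 4 without day 5 replicate 3 and 5 without day 3 replicate 1 or day 5 replicate 2. The cytosolic count was 0 without day 3 replicate 1 or day 5 replicate 3, 1 without day 3 replicate 2 or 3 or day 5 replicate 2, and 6 without day 5 replicate 1.

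Chromatin genes moved in both directions, and the counts here are also set beside 13.0% higher and 12.2% lower over all genes. Of 23 Polycomb genes 5 rose (21.7%) and 6 fell (26.1%). Pcgf5 (0.76) and Rbbp7 (0.25) were higher and Cbx7 (-0.53), Jarid2 (-0.35) and Mtf2 (-0.34) lower. Of 15 DNA methylation genes 3 rose, with Mbd2 at 0.61, and 5 fell. Without day 3 replicate 2 or 3 or day 5 replicate 3, 1 of them was called higher. Of 25 lysosome and autophagy genes 4 rose, with the acid lipase Lipa at 0.70, and 7 fell, with the hexosaminidase Hexa at -0.43. Of 26 genes of the amino acid stress response and transfer RNA synthetases 5 rose and 9 fell, with the serine synthesis enzymes Phgdh (-0.48) and Psat1 (-0.44) lower. The higher count was 2 without day 3 replicate 2 or day 5 replicate 3 and 3 without day 3 replicate 3 or day 5 replicate 1. The lower count was 5 without day 3 replicate 1 or day 5 replicate 1. Of 12 genes of the Myc and Max network 1 rose (Myc, 0.32) and 1 fell (Mga, -0.34), and the call of Myc was lost without day 3 replicate 1, day 5 replicate 1 or day 5 replicate 3. Of 21 housekeeping genes 3 rose, with B2m at 0.22, and 5 fell, with Hprt at -0.39. The lower count was 1 without day 3 replicate 1, 2 without day 5 replicate 3 and 3 without day 3 replicate 3. B2m lost its call without day 3 replicate 2 or 3 or day 5 replicate 2, with adjusted p-values of 0.051 to 0.053 (limma).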
